A study of Mus musculus with 96 samples.

Results

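Ucp1 encodes uncoupling protein 1 (UCP1), a carrier of the inner mitochondrial membrane that lets protons return to the matrix without driving ATP synthesis, so that the energy of fuel oxidation is released as heat. The protein is the defining product of brown adipocytes and also appears in the thermogenic (beige) adipocytes of white fat. In mouse brown fat, noradrenaline released in the cold acts through beta-adrenergic receptors and cyclic AMP to raise transcription of the gene and to free the fatty acids that activate the protein. The rows of Ucp1 were taken by gene symbol from the table the authors deposited, whose unit is RPKM (reads scaled to transcript length in kilobases and to library size in M reads, where M stands for mega). They were 3 of 168326 transcript rows and stood for 1 of 29072 gene symbols.

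RNA came from male C57BL/6J mice whose labels gave the genotype UCP1(-/-) (Ucp1-KO) or wildtype (WT). Each genotype was kept for 4 weeks in 3 settings: at 20 °C on control diet, at 30 °C (thermoneutral, as the study calls it) on control diet, and at 30 °C on high fat diet (HFD). Fat gave 48% of the energy in HFD and 13% in control diet. Brown fat from between the shoulder blades (iBAT) and white fat from the groin (iWAT) were sampled, with 8 animals per group, which gave 12 groups and 96 libraries. All groups share sex and strain. The labels name neither the allele of the knockout nor the part of Ucp1 that it changes, and give no batch. The animal behind a library is not named, so the tissues could not be paired. The libraries held 8.91 to 19.2 M reads with a median of 11.8 M, recovered from the spacing of the low RPKM values, so that 1 read on 1 kilobase stood for 0.052 to 0.112 RPKM. Summed brown adipocyte markers (Cidea, Cox7a1, Cox8b, Elovl3, Otop1, Kng2, Zic1 and Lhx8) were 1253 to 6405 RPKM in iBAT of Ucp1-KO mice and 2553 to 5749 RPKM in iBAT of WT mice, and 39.4 to 3647 RPKM over all iWAT libraries, and none of the 8 was at 0 throughout a group.

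The start regions of Ucp1 and of its closest paralogs Ucp2 and Ucp3 are shown because Ucp1 RNA was still counted in knockout mice, and because the genotypes differed in RNA of all 3 genes. Each sequence is the 250 bases before the RefSeq transcription start on build GRCm38.p6, + strand: chr8:83290098-83290347 for Ucp1, chr7:100493108-100493357 for Ucp2 and chr7:100472741-100472990 for Ucp3. Capitals mark the TATA-type motif TATATA and the cyclic AMP response element core TGACG, read as CGTCA where it lies on the other strand.
Ucp1: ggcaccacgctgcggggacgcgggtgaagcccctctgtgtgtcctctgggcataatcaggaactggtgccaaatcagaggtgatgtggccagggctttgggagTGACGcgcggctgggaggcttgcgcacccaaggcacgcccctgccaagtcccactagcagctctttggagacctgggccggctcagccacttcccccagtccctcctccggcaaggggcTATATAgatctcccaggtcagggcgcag
Ucp2: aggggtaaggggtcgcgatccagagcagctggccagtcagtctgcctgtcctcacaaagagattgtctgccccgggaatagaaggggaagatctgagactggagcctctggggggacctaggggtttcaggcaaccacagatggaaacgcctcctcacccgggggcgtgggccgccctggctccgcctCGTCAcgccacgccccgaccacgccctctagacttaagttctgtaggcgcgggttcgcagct
Ucp3: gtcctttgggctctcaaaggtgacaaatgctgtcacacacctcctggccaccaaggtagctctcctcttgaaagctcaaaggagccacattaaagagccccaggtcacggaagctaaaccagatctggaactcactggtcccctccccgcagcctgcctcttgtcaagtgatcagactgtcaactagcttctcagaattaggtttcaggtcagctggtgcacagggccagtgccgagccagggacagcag
Both strands were searched for TATATA, for the related TATAAA, and for TGACG. The window of Ucp1 held TATATA starting 28 bases before the start, a palindrome that matches on both strands, and TGACG starting 147 bases before the start on the + strand. The window of Ucp2 held TGACG on the - strand, starting 62 bases before the start, and the window of Ucp3 held none of the 3. Of 32851 mouse promoter windows of this length, 5.25% held TATATA, 12.37% TATAAA and 17.77% TGACG. These matches describe letters in a window only. The distant enhancer of the mouse gene, known to respond to adrenergic signals, lies outside the window.

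The 3 rows of Ucp1 carried the accessions AK002759, AK076454 and NM_009463, with transcript lengths of 1235, 1636 and 1644 bases recovered from the spacing of their values. RPKM values of all 3 were whole reads in 96 of 96 libraries within 0.05 of a read. Over all libraries AK002759 averaged 1799 RPKM, AK076454 1431 RPKM and NM_009463 1424 RPKM. AK002759, the row of highest mean, therefore stands for Ucp1 below. The reference annotation lists a Ucp1 transcript of 1636 bases in 6 exons, of which 921 bases are coding. The long rows AK076454 and NM_009463 had the same number of reads in 50 of 96 libraries and were at most 12 reads apart, so that they are a single measurement in practice. AK002759 never had more reads than NM_009463.

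Knockout of Ucp1 did not bring its RNA to 0. All 3 rows held reads in 48 of 48 Ucp1-KO libraries. The source of these reads was not tested. In iBAT no Ucp1-KO library reached the lowest WT library of its setting. In iWAT on control diet Ucp1 was instead higher in Ucp1-KO mice, at 20 and at 30 °C.

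In iBAT at 20 °C, Ucp1 ranged over 867, 993 and 1145 RPKM (lowest, median and highest of 8) in Ucp1-KO mice, against 2428, 4016 and 4550 RPKM in WT mice. At 30 °C on control diet it was 564, 679 and 1112 RPKM in Ucp1-KO mice, against 7328, 8200 and 9281 RPKM in WT mice. On HFD it was 546, 815 and 964 RPKM in Ucp1-KO mice, against 4858, 6413 and 7710 RPKM in WT mice. The genotypes did not overlap in any of the 3 settings, and the WT level moved far more between settings than the Ucp1-KO level did. The WT means were 3.77, 11.2 and 8.31 times the Ucp1-KO means at 20 °C, at 30 °C on control diet and on HFD. The differences of log2(RPKM + 1), Ucp1-KO minus WT, were -1.89 ± 0.12 (SE), -3.51 ± 0.12 and -3.06 ± 0.12, with adjusted p of 4.34e-17, 1.18e-26 and 4.00e-24 (limma-trend, Benjamini-Hochberg over all genes tested). Of all genes tested, 37.8%, 64.7% and 63.9% passed the same threshold of 0.05 in those comparisons. By rank among all genes of a library, the median place of Ucp1 in iBAT was 36.5 in Ucp1-KO and 7.5 in WT mice at 20 °C, and 48.5 in Ucp1-KO and 7 in WT mice at 30 °C. A bulk value cannot tell fewer cells of a type from less RNA per cell.

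**Figure D1:**
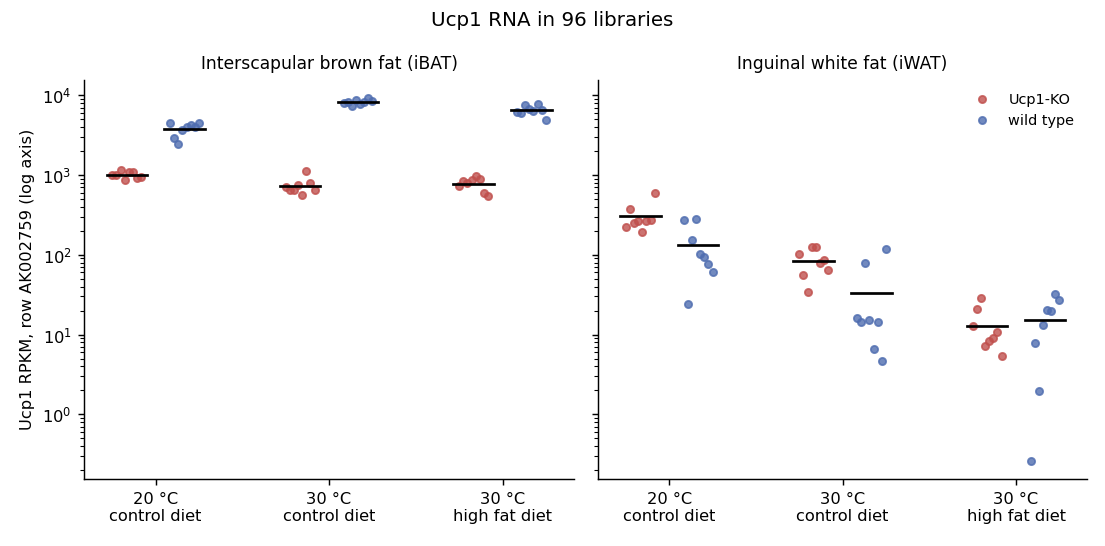
RPKM of Ucp1 (row AK002759, log axis) in each of the 96 libraries, by tissue, genotype and setting, with points for single animals and a bar for the mean. In iBAT the Ucp1-KO points lie between 546 and 1145 RPKM and below every WT point, whereas in iWAT at 20 and 30 °C the Ucp1-KO mean is the higher one.

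On the RPKM scale, temperature moved Ucp1 of iBAT in opposite directions in the genotypes, but not relative to summed brown adipocyte markers. In Ucp1-KO mice the mean was 1005 ± 92 RPKM at 20 °C and 736 ± 168 RPKM at 30 °C (SD, n = 8 each), a difference of 0.47 ± 0.12 in log2(RPKM + 1) that passed the test (limma adjusted p = 7.30e-04), and the groups overlapped. Relative to summed brown adipocyte markers its sign was the opposite (-0.60). Of the 8 markers in that sum, 6 passed as higher and 1 as lower at 20 °C in Ucp1-KO iBAT (limma). In WT mice the mean of Ucp1 was 3793 ± 751 RPKM at 20 °C and 8227 ± 577 RPKM at 30 °C. The difference was -1.14 ± 0.12 (limma adjusted p = 3.08e-10) with no overlap. Ucp1 RNA was thus 2.17 times as high at 30 °C. Relative to the markers the WT difference was -1.59 (exact adjusted p = 0.00031), so that both genotypes were lower at 20 °C on that scale. The interaction of genotype and temperature was 1.61 ± 0.17 (limma adjusted p = 5.23e-10). Of all genes, 73.4% passed in the Ucp1-KO comparison of temperatures, 44.6% in the WT one and 52.4% in the interaction, so that a call was common among genes. The median of all genes lay at -0.34 for 20 minus 30 °C in Ucp1-KO iBAT and at -0.12 in WT iBAT, against which the values of Ucp1 are read. As a fraction of the summed RPKM of all genes, Ucp1 took 0.247% in Ucp1-KO and 0.890% in WT iBAT at 20 °C, and 0.176% in Ucp1-KO and 2.02% in WT iBAT at 30 °C.

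Diet differences of Ucp1 in iBAT depended on the scale used. On HFD against control diet at 30 °C, the Ucp1-KO difference was 0.08 (95% interval -0.17 to 0.33, limma adjusted p = 0.707), where 16.4% of genes passed. Relative to summed brown adipocyte markers it was 0.61 and passed (exact adjusted p = 0.00057). Of the 8 markers in that sum, 1 passed as higher and 3 as lower on HFD (limma, list median -0.21, all genes -0.01). That ratio therefore also holds changes of the markers. The WT difference was -0.36 ± 0.12 (limma adjusted p = 0.0218, 33.0% of genes passed), with means of 6466 ± 902 RPKM on HFD and 8227 ± 577 RPKM on control diet. This last call did not survive the loss of 1 library: without WT iBAT HFD replicate 8 the limma adjusted p was 0.063. It also missed the threshold with no filter on low genes. Quantile normalization turned its sign, but that scaling keeps only ranks. Ucp1 ranked 6 or 7 among all genes in every WT iBAT library of both diets at 30 °C. Its values after quantile normalization therefore cannot size this difference. By exact permutation test the WT difference passed (exact adjusted p = 0.00072). Relative to summed brown adipocyte markers the WT difference was -0.39 and passed (exact adjusted p = 0.0016). The interaction of genotype and diet, 0.44 ± 0.17, did not pass (limma adjusted p = 0.12, 6.55% of genes passed), and passed without Ucp1-KO iBAT 30 °C replicate 6 (0.53, adjusted p = 0.037).

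In iWAT, Ucp1 was higher in Ucp1-KO than in WT mice on control diet. At 20 °C it was 196, 266 and 597 RPKM (lowest, median, highest) in Ucp1-KO mice, against 23.9, 97.1 and 281 RPKM in WT mice. At 30 °C it was 34.1, 83.1 and 124 RPKM in Ucp1-KO mice, against 4.66, 14.9 and 117 RPKM in WT mice. On HFD it was 5.40, 10.0 and 28.6 RPKM in Ucp1-KO mice, against 0.258, 16.6 and 32.7 RPKM in WT mice. The genotypes overlapped in all 3 settings, unlike in iBAT. The differences were 1.48 ± 0.54 at 20 °C (limma adjusted p = 0.0165, Ucp1-KO mean 2.30 times the WT mean) and 1.97 ± 0.54 at 30 °C (limma adjusted p = 0.00984, Ucp1-KO mean 2.51 times the WT mean, and 3.92 times without WT iWAT 30 °C replicate 8, which held 117 RPKM). On HFD the difference was 0.18 with a 95% interval of -0.92 to 1.28 (limma adjusted p = 0.99). Of all genes, 64.8%, 23.8% and 0.283% passed at 20 °C, at 30 °C and on HFD. Relative to summed brown adipocyte markers, neither of the control diet differences passed. The call at 20 °C missed the threshold without WT iWAT 20 °C replicate 2 (1.18, adjusted p = 0.054).

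Ucp1 RPKM of iWAT was higher at 20 than at 30 °C in both genotypes, but no such difference passed relative to summed brown adipocyte markers (-0.12 in Ucp1-KO mice, exact adjusted p = 0.555, and 0.56 in WT mice, exact adjusted p = 0.467). The 20 minus 30 °C difference was 1.88 ± 0.54 in Ucp1-KO mice (limma adjusted p = 0.00324, 20 °C mean 3.65 times the 30 °C mean, no overlap, 60.4% of genes passed) and 2.37 ± 0.54 in WT mice (limma adjusted p = 0.00182, 20 °C mean 3.99 times the 30 °C mean and 6.21 times without WT iWAT 30 °C replicate 8, groups overlapping, 19.6% of genes passed). The interaction of genotype and temperature in iWAT was -0.49 and did not pass (95% interval -2.04 to 1.06, limma adjusted p = 0.697, 13.3% of genes passed). On HFD against control diet at 30 °C, Ucp1 in Ucp1-KO iWAT fell by 2.68 on the log2 scale (limma adjusted p = 2.44e-04, no overlap, 24.4% of genes passed). Relative to the markers that difference was -0.53 and did not pass (exact adjusted p = 0.0955). In WT iWAT the diet difference was -0.89 (95% interval -1.99 to 0.21, limma adjusted p = 0.324, 13.5% of genes passed), and the interaction of genotype and diet, -1.79, did not pass (limma adjusted p = 0.247, 1.33% of genes passed). Animals of a group differed much more in iWAT than in iBAT: the coefficient of variation was 123% in WT iWAT at 30 °C, 75.6% in WT iWAT on HFD and 38.3% in Ucp1-KO iWAT at 30 °C, against 7.01 to 22.8% in the iBAT groups. The SD of log2(RPKM + 1) ran from 0.50 in Ucp1-KO iWAT at 20 °C to 1.68 in WT iWAT on HFD. The SE and intervals of iWAT rest on a single spread shared by all iWAT groups. They are too narrow for the WT diet comparison and too wide for comparisons within Ucp1-KO mice.

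Ucp1 was higher in iBAT than in iWAT in every setting, with no overlap in all 6 comparisons. The mean of iBAT was 3.28 times that of iWAT in Ucp1-KO mice at 20 °C, 8.77 times at 30 °C and 60.3 times on HFD. In WT mice it was 28.5, 247 and 422 times. The second of these was 384 times without WT iWAT 30 °C replicate 8, and by medians the ratios in WT mice were 41.3, 551 and 387, so the order of the 30 °C and HFD ratios depends on the measure. In log2(RPKM + 1) the tissue difference was 1.79, 3.20 and 5.96 in Ucp1-KO mice and 5.16, 8.67 and 9.20 in WT mice at 20 °C, at 30 °C and on HFD (SE 0.40 each, all passing with limma). Of all genes, 62.9%, 62.2% and 69.5% passed in those Ucp1-KO comparisons and 80.2%, 81.3% and 78.6% in the WT ones. The tissue difference depended on genotype, with interactions of -3.37, -5.48 and -3.24 ± 0.57 (SE) at 20 °C, at 30 °C and on HFD (limma adjusted p = 7.91e-07, 1.30e-13 and 1.52e-06, with 55.6%, 63.1% and 47.8% of genes passing). It depended on temperature in WT mice (-3.51, limma adjusted p = 1.48e-06, 16.8% of genes passed). The same interaction in Ucp1-KO mice, -1.41, narrowly missed the threshold (limma adjusted p = 0.0559, 25.5% of genes passed). That call depended on the fit, whose spread is shared by all 12 groups. The Ucp1-KO interaction passed in 3 of 32 fits without 1 library (lowest limma adjusted p = 0.0439). It also passed with a pseudocount of 10, under quantile normalization and with only its own groups fitted.

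**Figure D2:**
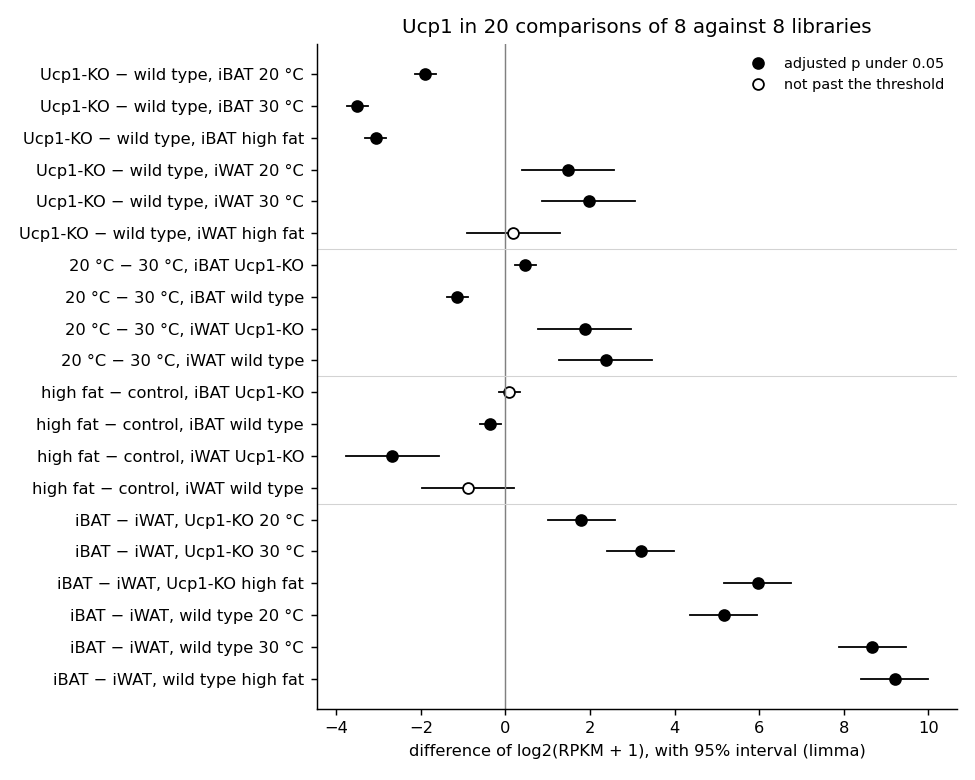
Differences of Ucp1 in log2(RPKM + 1) with 95% intervals for each comparison of genotype, temperature, diet and tissue, positive meaning higher in the first named group. The genotype differences of iBAT lie between -3.51 and -1.89, those of iWAT between 0.18 and 1.97.

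Ordered by group mean, WT iBAT at 30 °C was first, followed by WT iBAT on HFD, WT iBAT at 20 °C, Ucp1-KO iBAT at 20 °C, on HFD and at 30 °C, and Ucp1-KO iWAT at 20 °C. WT iWAT at 20 °C, Ucp1-KO iWAT at 30 °C, WT iWAT at 30 °C, WT iWAT on HFD and Ucp1-KO iWAT on HFD followed. Of the 11 pairs of neighbours in this order, 7 differed by an exact permutation test. The pairs were set by the same values that were tested, so that the tests only describe this order. The last pair turned round in log2(RPKM + 1) (-0.18). By medians WT iWAT on HFD (16.6 RPKM) lay above WT iWAT at 30 °C (14.9 RPKM). The 4 pairs that did not differ beyond their spread were Ucp1-KO iBAT on HFD and at 30 °C (exact adjusted p = 0.628), WT iWAT at 20 °C and Ucp1-KO iWAT at 30 °C (0.497), WT iWAT at 30 °C and on HFD (0.399), and WT iWAT and Ucp1-KO iWAT on HFD (0.792). Over the 29 differences of Ucp1, the 3 transcript rows were at most 0.07 apart on the log2 scale.

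The net excess of reads in the long rows over the short row was a smaller share of reads in Ucp1-KO mice. Whether every read of the short row was also counted in the long rows is unknown. NM_009463 is 409 bases longer than AK002759, which is 24.9% of its length. The reads of NM_009463 beyond the count of AK002759 were 3.44 ± 0.53% of the reads in Ucp1-KO and 5.31 ± 0.32% in WT iBAT at 20 °C (SD, n = 8 each). They were 2.68 ± 0.28% in Ucp1-KO and 4.44 ± 0.41% in WT iBAT at 30 °C, and 3.81 ± 0.80% in Ucp1-KO and 6.64 ± 0.51% in WT iBAT on HFD. Ucp1-KO libraries were lower without overlap in all 3 settings (exact permutation test of the log2 ratio of the rows, adjusted p = 0.00066 over 34 tests). In iWAT the percentage was 3.74 ± 0.32% in Ucp1-KO and 5.20 ± 0.77% in WT mice at 20 °C (exact adjusted p = 0.00132), and 3.32 ± 0.59% in Ucp1-KO and 5.17 ± 0.97% in WT mice at 30 °C (exact adjusted p = 0.00096). WT iWAT on HFD was not tested because 1 library held only 4 reads of AK002759. Without that library, an alternative chosen after seeing the data, it was 3.38 ± 1.56% in Ucp1-KO and 5.73 ± 3.06% in WT mice (n = 8 and 7, exact adjusted p = 0.124). In iBAT the percentage was also higher at 20 than at 30 °C (exact adjusted p = 0.0085 in Ucp1-KO and 0.0015 in WT mice) and on HFD than on control diet (exact adjusted p = 0.0020 in Ucp1-KO and 0.00066 in WT mice). In iWAT the temperature difference of the percentage did not pass (exact adjusted p = 0.149 in Ucp1-KO and 0.952 in WT mice). Neither did the diet difference in Ucp1-KO iWAT (exact adjusted p = 0.952). The place of the 409 bases in the transcript was not analysed here.

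**Figure D3:**
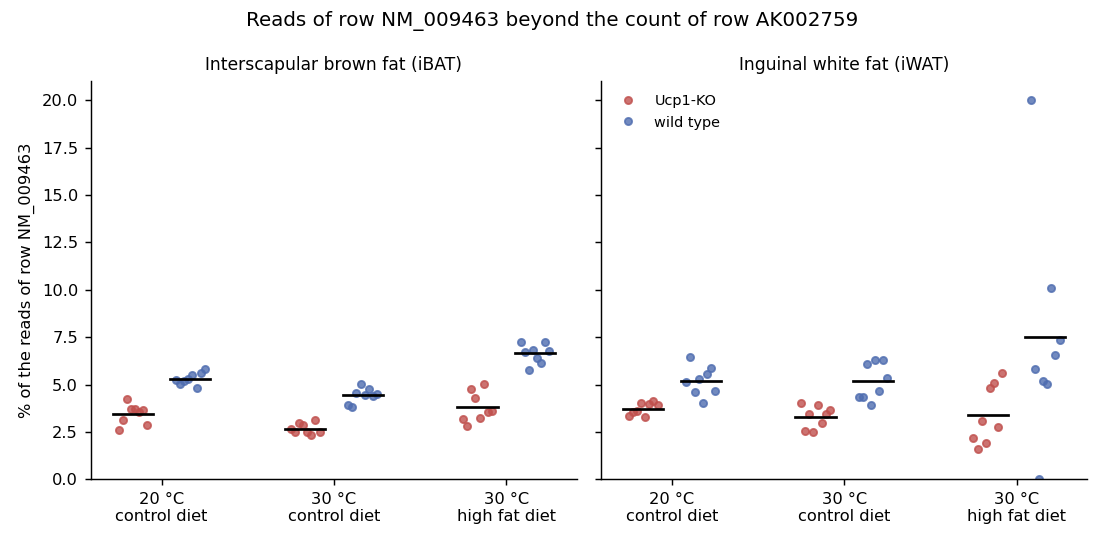
Reads of NM_009463 beyond the count of AK002759, as a percentage of the reads of NM_009463, for each library by tissue, genotype and setting. Ucp1-KO iBAT libraries lie between 2.37 and 5.06% and WT iBAT libraries between 3.81 and 7.25%. The highest point, in WT iWAT on HFD, is the library with 5 reads of NM_009463.

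Relative to brown adipocyte markers, Ucp1 was lower in Ucp1-KO iBAT, and no genotype difference passed in iWAT. The ratio of Ucp1 to the summed 8 markers, chosen after seeing the data, was 0.197 ± 0.024 in Ucp1-KO and 0.831 ± 0.137 in WT iBAT at 20 °C (SD, n = 8 each). It was 0.298 ± 0.032 in Ucp1-KO and 2.49 ± 0.27 in WT iBAT at 30 °C, and 0.465 ± 0.126 in Ucp1-KO and 1.91 ± 0.25 in WT iBAT on HFD. The genotypes did not overlap in iBAT (log2 differences of -2.07, -3.06 and -2.07, exact permutation test, adjusted p = 0.00031 each over 20 tests). In iWAT it was 0.152 ± 0.016 in Ucp1-KO and 0.230 ± 0.149 in WT mice at 20 °C, and 0.172 ± 0.051 in Ucp1-KO and 0.187 ± 0.192 in WT mice at 30 °C (exact adjusted p = 0.490 and 0.555). On HFD it was 0.123 ± 0.057 in Ucp1-KO and 0.200 ± 0.158 in WT iWAT (exact adjusted p = 0.979). In iWAT the summed markers had medians of 1794 RPKM in Ucp1-KO and 572 RPKM in WT iWAT at 20 °C, and 489 RPKM in Ucp1-KO and 133 RPKM in WT iWAT at 30 °C. The temperature difference of Ucp1-KO iBAT turned round on this scale, to -0.60 (exact adjusted p = 0.00031, no overlap). For that difference the 8 markers had a list median of 1.09, against -0.34 over all genes.

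**Figure D4:**
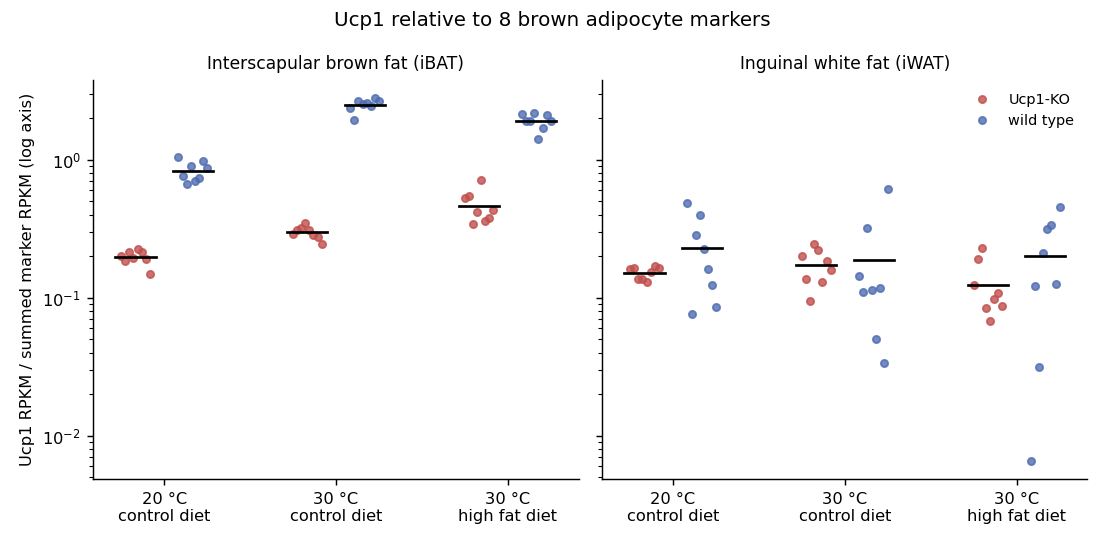
Ratio of Ucp1 RPKM to the summed RPKM of 8 brown adipocyte markers in each library, by tissue, genotype and setting. In iBAT the Ucp1-KO means are 0.197 to 0.465 and the WT means 0.831 to 2.49, while in iWAT the means of both genotypes lie between 0.123 and 0.230.

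Markers of other cells moved with several of these comparisons. In iBAT, macrophage markers passed as higher in Ucp1-KO mice in 5, 7 and 7 of 7 members at 20 °C, at 30 °C and on HFD, and their sum had medians of 1066 RPKM in Ucp1-KO and 117 RPKM in WT mice at 30 °C. Lymph node B and T cell markers passed as higher in 1, 6 and 9 of 9. Of 10 skeletal muscle markers, 0 passed at 20 and at 30 °C (limma, 0 also by unadjusted p), and at 30 °C their sums spread over 74.8 to 12131 RPKM across Ucp1-KO libraries and over 90.1 to 4284 RPKM across WT libraries. On HFD 9 of 10 were higher in Ucp1-KO iBAT, with median sums of 1163 RPKM in Ucp1-KO and 480 RPKM in WT mice. Of all genes of iBAT, 24.7%, 54.2% and 52.8% passed as higher in those comparisons. In iWAT, lymph node markers were lower in Ucp1-KO mice in 10 of 10 at 20 °C and 4 of 10 at 30 °C, macrophage markers in 5 and 4 of 7, and epithelial markers in 4 of 5 at 20 °C, where 55.0% of all genes passed as lower at 20 °C and 16.2% at 30 °C. With diet, 8 of 10 muscle markers were lower on HFD than on control diet in Ucp1-KO iWAT, and 8 of 10 in WT iWAT, where 8.31% and 3.84% of all genes passed as lower. No marker of the muscle and macrophage lists was at 0 throughout a group. The part of these cells in the Ucp1 differences was not tested.

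The lowest value of all libraries was 0.258 RPKM in WT iWAT HFD replicate 1. It rested on 4 reads of AK002759 and 5 of NM_009463 in a library of 12.6 M reads. Adipoq, the adipocyte hormone adiponectin, was at 2410 RPKM in that library, Cidea, a lipid droplet protein of brown fat, at 5.60 RPKM, and the 8 brown adipocyte markers summed to 39.4 RPKM. That sum was the lowest of the WT iWAT HFD group.

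Other uncoupling proteins moved differently. The differences of single genes below are on the RPKM scale, on which the median of all genes was not 0. Median-ratio scaling moved the all-gene median of Ucp1-KO minus WT from 0.27 and 0.25 to 0.02 and 0.01 in iBAT at 30 °C and on HFD, and from -0.27 to -0.01 in iWAT at 20 °C. Ucp2, which is expressed widely and also in macrophages, was higher in Ucp1-KO iBAT, with means of 68.5, 174 and 144 RPKM in Ucp1-KO mice against 28.9, 53.2 and 55.4 RPKM in WT mice at 20 °C, at 30 °C and on HFD (log2 differences of 1.18, 1.63 and 1.37, all passing with limma). In iWAT, Ucp2 was lower in Ucp1-KO mice at 20 °C (-0.68, and -0.31 under median-ratio scaling) and at 30 °C (-0.35, and -0.24 under median-ratio scaling), and did not pass on HFD (-0.10, limma adjusted p = 0.944). Ucp3, the paralog of muscle and brown fat, was lower in Ucp1-KO iBAT, at 39.6, 29.6 and 26.3 RPKM in Ucp1-KO mice against 70.2, 84.8 and 42.7 RPKM in WT mice (-0.82, -1.56 and -0.55, all passing), and higher in Ucp1-KO iWAT at 20 °C (0.40) and at 30 °C (0.48). Under median-ratio scaling the Ucp3 difference was -0.85 in iBAT on HFD and 0.77 in iWAT at 20 °C. Within the list of uncoupling proteins and adenine nucleotide carriers, 2, 4 and 4 of 7 members were higher and 1 in each case lower in Ucp1-KO iBAT at 20 °C, at 30 °C and on HFD. Over all genes, 24.7%, 54.2% and 52.8% passed as higher and 13.1%, 10.5% and 11.0% as lower in those comparisons.

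The coactivator Ppargc1a drives mitochondrial biogenesis and Ucp1 transcription with nuclear receptors. Like Ucp1 on the RPKM scale, it moved in opposite directions with temperature in iBAT of the genotypes. Its means were 66.0, 34.8 and 40.2 RPKM in Ucp1-KO iBAT, against 13.9, 67.4 and 34.9 RPKM in WT iBAT, at 20 °C, at 30 °C and on HFD. The 20 minus 30 °C difference of Ppargc1a was 0.93 in Ucp1-KO and -2.26 in WT iBAT, with an interaction of 3.19 ± 0.34 (limma adjusted p = 3.09e-10). Irf4, a transcription factor that acts with the Ppargc1a product on Ucp1, went the other way in WT iBAT (2.03 for 20 minus 30 °C, interaction -2.58). Among 28 transcriptional regulators of Ucp1, 7 were higher and 8 lower in Ucp1-KO iBAT at 20 °C, with a list median of -0.03 against 0.06 over all genes. At 30 °C 12 were higher and 9 lower, and on HFD 12 were higher and 7 lower. Over all genes of iBAT, 24.7%, 54.2% and 52.8% passed as higher and 13.1%, 10.5% and 11.0% as lower. The lower counts of regulators were above that share in all 3 settings, and the higher counts at 30 °C and on HFD were below theirs. In iWAT, 9 were higher and 11 lower at 20 °C, 8 higher and 2 lower at 30 °C, and 0 of 28 passed with limma on HFD, where 6 had an unadjusted p under 0.05. Over all genes of iWAT, 9.85%, 7.54% and 0.195% passed as higher and 55.0%, 16.2% and 0.0881% as lower. Of 20 genes of adrenergic and cyclic AMP signalling tested in iBAT, 7 were higher and 2 lower at 20 °C, 9 higher and 5 lower at 30 °C, and 6 higher and 3 lower on HFD. Against the same shares of all genes of iBAT (24.7%, 54.2% and 52.8% higher, 13.1%, 10.5% and 11.0% lower), the higher counts at 30 °C and on HFD were below. The lower count at 30 °C was above its share. Adrb3, the beta3-adrenergic receptor of adipocytes, did not pass between genotypes in iBAT, and rose on HFD in Ucp1-KO (1.17) and WT (1.13) iBAT.

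Brown adipocyte identity genes other than Ucp1 split by setting. In iBAT, 5 of 19 were higher and 1 lower in Ucp1-KO mice at 20 °C, 1 higher and 12 lower at 30 °C, and 3 higher and 12 lower on HFD. Over all genes the shares were 24.7%, 54.2% and 52.8% higher and 13.1%, 10.5% and 11.0% lower, so that the count of higher members at 20 °C was near the share of all genes. The list medians were 0.19, -0.46 and -0.87, against 0.06, 0.27 and 0.25 over all genes. In iWAT, 15 of 18 were higher and 2 lower in Ucp1-KO mice at 20 °C (list median 1.71, all genes -0.27), 12 higher and 0 lower at 30 °C (1.00, all genes -0.12; also 0 lower by unadjusted limma p), and 0 of 18 passed with limma on HFD (0.08, all genes -0.04), where 5 had an unadjusted p under 0.05. Cidea, which like Ucp1 marks brown and beige cells, was higher in Ucp1-KO iWAT by 1.96 at 20 °C and 2.28 at 30 °C on the log2 scale, and lower in Ucp1-KO iBAT at 30 °C (-0.41) and on HFD (-0.89). Elovl3, a fatty acid elongase induced in cold brown fat, was higher in Ucp1-KO iWAT by 4.07 and 2.98, and in Ucp1-KO iBAT by 1.87, 0.78 and 1.84 at 20 °C, at 30 °C and on HFD. Dio2, the deiodinase that activates thyroid hormone, was higher in Ucp1-KO iWAT by 3.38 and 2.20 at 20 and 30 °C and did not pass in iBAT. Under median-ratio scaling the iBAT differences at 30 °C were -0.74 for Cidea and 0.45 for Elovl3.

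Within groups, Ucp1 went with many, but not all, of the brown adipocyte genes compared. Deviations from group means were set against those of Ucp1 over 24 libraries per tissue and genotype, with 36 relations in the family and 100000 permutations each. With Cidea, Cox8b, Elovl3, Dio2 and Fabp3, 14 of 20 relations passed by Pearson's r and 13 by Spearman's rho. In Ucp1-KO iWAT, r with Cidea was 0.75 (rho 0.73, adjusted permutation p = 0.00072) and was 0.72 without the 2 farthest libraries. In WT iWAT, r with Dio2 was 0.74 (rho 0.79, adjusted permutation p = 0.00036) and 0.67 without the 2 farthest. In Ucp1-KO iBAT, r with Cidea was 0.68 (rho 0.62, adjusted permutation p = 0.0070) and 0.51 without them. Within its single groups that r ran from 0.08 to 0.96. Cox8b in Ucp1-KO iBAT passed by r but not by rho (0.49, adjusted permutation p = 0.0599). So did Fabp3 in Ucp1-KO iWAT (rho 0.34, adjusted permutation p = 0.179, r = 0.21 without the 2 farthest). The 6 relations that did not pass by r were with Dio2 (r = 0.39, rho 0.42, adjusted permutation p = 0.140), Elovl3 (0.37, rho 0.20, adjusted permutation p = 0.215, r = -0.04 without the 2 farthest) and Fabp3 (0.52, adjusted permutation p = 0.0613) in Ucp1-KO iBAT, with Dio2 (-0.03, rho -0.14, adjusted permutation p = 0.89) and Cidea (0.44, adjusted permutation p = 0.0613, though 0.0248 for a rho of 0.55) in WT iBAT, and with Cox8b (0.48, adjusted permutation p = 0.0649) in WT iWAT. With Ppargc1a and Adrb3, 0 of 8 relations passed (0 also by unadjusted permutation p), with r between -0.18 and 0.32. With the summed skeletal muscle markers, r was -0.48 in Ucp1-KO iBAT and -0.44 in WT iBAT (adjusted permutation p = 0.0839 and 0.0613), while rho was -0.59 and -0.51 and passed (adjusted permutation p = 0.0175 and 0.0248). With the summed mammary and skin epithelium markers, which were below 1 RPKM in WT iBAT, r was -0.48 there (adjusted permutation p = 0.0415) and rho -0.61 (adjusted permutation p = 0.00696), and r was -0.36 without the 2 farthest libraries. The part of these cells in the other relations was not tested.

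The genes most like Ucp1 by Pearson's r of log2(RPKM + 1) are given as a description, since the libraries of a set share group differences. In Ucp1-KO iWAT over 24 libraries they were Cpt1b, the muscle and brown fat carnitine palmitoyltransferase (r = 0.99), Plin5 (0.98), Cidea (0.98), Gyk (0.98), Cox8b (0.97) and Cox7a1 (0.97), and the gene most opposite was Cast (-0.96). In WT iWAT they were Gyk (0.86), Plin5 (0.86), Cpt1b (0.85), Letmd1 (0.85), Abi3 (0.84) and Pank1 (0.84). In Ucp1-KO iBAT they were Aspa (0.87), Cpt1b (0.86) and Idh3a (0.85), with Cebpd opposite (-0.87). In WT iBAT they were Sgk2 (0.95), Slc25a17 (0.94) and Slc16a1 (0.94), with Scd2 opposite (-0.92). Slc16a1 had r = 0.30 with Ucp1 in Ucp1-KO iBAT. Of the genes named as most like Ucp1 in iWAT, Letmd1 (-0.74), Cox7a1 (-0.47), Cidea (-0.30) and Cox8b (-0.28) had negative r in WT iBAT. Positive r in WT iBAT was found for Gyk (0.88), Abi3 (0.84), Pank1 (0.84), Plin5 (0.19) and Cpt1b (0.12). Over all 48 iBAT libraries the closest was Scoc (0.93), a neighbour of Ucp1 in the reference annotation. Within a genotype, r of Scoc was -0.23 in Ucp1-KO iBAT and 0.48 in WT iBAT. Over all iWAT libraries it was -0.42.

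Of 10 genes next to Ucp1 in the reference annotation, 8 were tested. Scoc, the third gene after Ucp1, was lower in Ucp1-KO mice in 6 of 6 comparisons of genotype, by 1.42, 1.39 and 1.29 in iBAT and 1.19, 0.95 and 1.20 in iWAT on the log2 scale at 20 °C, at 30 °C and on HFD. Its level was 1.77 to 3.67 RPKM in iBAT of Ucp1-KO mice, against 6.22 to 10.3 RPKM in iBAT of WT mice, with no overlap. In iWAT Scoc was 1.67 to 4.13 RPKM in Ucp1-KO mice, against 4.05 to 10.5 RPKM in WT mice. Rnf150, the second gene before Ucp1, was lower in 5 of 6 comparisons, with 0.344 to 2.43 RPKM in iBAT of Ucp1-KO mice, against 2.61 to 5.70 RPKM in iBAT of WT mice, and 1.56 to 5.27 RPKM in iWAT of Ucp1-KO mice, against 4.67 to 7.38 RPKM in iWAT of WT mice. Tbc1d9, the gene next before Ucp1, was higher in Ucp1-KO iBAT by 0.97, 0.64 and 0.46 at 20 °C, at 30 °C and on HFD, and by 0.95, 0.36 and 0.21 under median-ratio and 0.92, 0.21 and 0.09 under quantile scaling. In iWAT Tbc1d9 was -0.39 at 20 °C (-0.11 and -0.06 under those scalings) and -0.59 at 30 °C (-0.49 and -0.43). Elmod2, the gene next after Ucp1, was lower in Ucp1-KO iBAT at 20 °C (-0.57) and higher on HFD (1.10, and 0.82 and 0.76 under those scalings). Its difference at 30 °C, 0.40, was 0.10 under median-ratio and 0.01 under quantile scaling, and its iWAT difference at 20 °C, -0.24, turned its sign under both. Inpp4b, Il15, Zfp330 and Ndufb7 passed in 2, 5, 5 and 3 of the 6 comparisons, in which 37.8%, 64.7% and 63.9% of all genes passed in iBAT and 64.8%, 23.8% and 0.283% in iWAT. The call of Inpp4b in iBAT at 30 °C (0.26) turned its sign under quantile scaling. On control diet the differences of Ucp1 itself changed sign between tissues. On HFD the iWAT difference of Ucp1, 0.18, did not pass (limma adjusted p = 0.99). Those of Scoc and of Rnf150 were below 0 in all 6 comparisons (-1.92 to -0.24 for Rnf150).

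**Figure D5:**
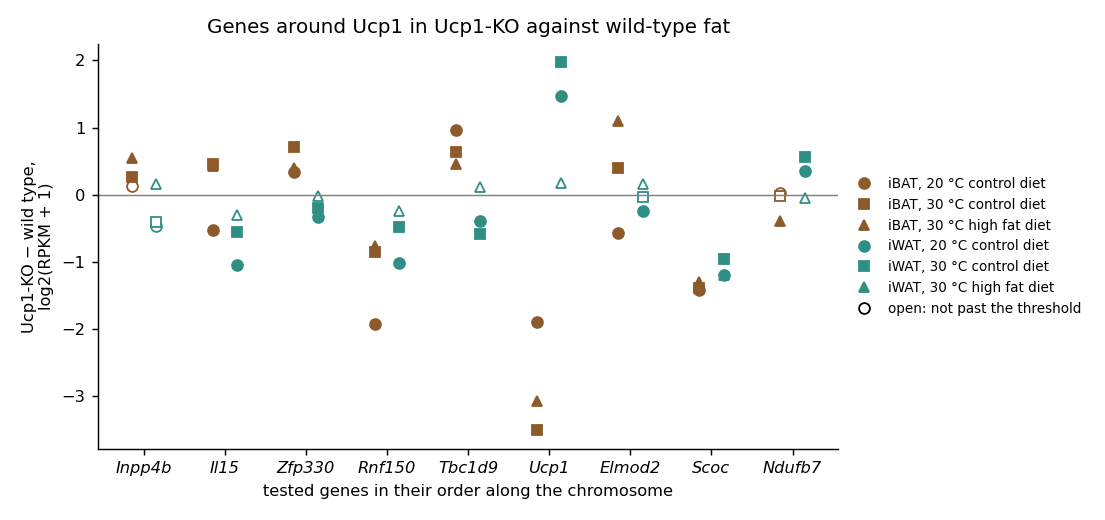
Log2 differences (Ucp1-KO minus WT) of Ucp1 and of the tested genes next to it, in order along the chromosome, for iBAT and iWAT in 3 settings. Scoc lies below 0 in all 6 comparisons, between -1.42 and -0.95.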

How the data were processed

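RNA of 96 libraries was sequenced after a stranded mRNA library preparation, per the labels' protocols. The authors deposited 1 table of RPKM values, 168326 transcript rows with a column per library. CASAVA and bcl2fastq are named in the submitters' processing notes. Neither aligner, counting tool nor build is given in the sources used here, so how reads shared by transcripts of a gene were counted is unknown. Reads per library were recovered from the spacing of low values, of which 94.9 to 95.7% were whole within 0.05 of a read.

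Rows without a gene identifier (13.76% of rows) were left out, and the row of highest mean stood for each symbol. Genes were tested where 8 or more libraries reached 0.5 RPKM, as log2(RPKM + 1) with limma 3.58.1 (limma-trend) in R 4.3.3, by group means within each tissue (14807 genes in iBAT, 15897 in iWAT) and over both tissues (16310 genes), with Benjamini-Hochberg adjustment at 0.05. Printed 95% intervals use the residual degrees of freedom. SE and intervals rest on a spread shared by all groups of a fit, not on that of the groups compared. A difference on this scale understates changes of low genes. Values within Ucp1 were compared by exact 2-sided permutation tests, which with 8 against 8 cannot give p below 0.000155, and relations by permutation (Python 3.11.15, scipy 1.17.1). The fits were tested on simulated data. Alternatives were other pseudocounts, scalings, filters, row choices and leaving out each library. Named genes were members of the lists, the 5 genes on each side of Ucp1, and the 6 most and 3 least alike by Pearson's r. The members and lists were chosen with earlier results of these data known. Promoter sequences and positions come from RefSeq, build GRCm38.p6, and all 3 genes matched by symbol.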

Additional observations from a re-analysis of the deposited data

Results flagged for a closer look

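Single libraries stood far from the others of their group, by the gap to the next value, in 24 checks (12 groups by each of 2 measures, Ucp1 RPKM and the share of reads beyond the short row), where chance gives about 1 in 20. Ucp1-KO iBAT at 30 °C on control diet held 1 library (replicate 6) with 1112 RPKM of Ucp1, and Ucp1-KO iWAT at 20 °C held 1 (replicate 8) with 597 RPKM.

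Effects of Ucp1 that differed between groups, each by its interaction in limma, were the temperature difference of iBAT between genotypes (1.61), the tissue difference between temperatures in WT mice (-3.51), and the tissue difference between genotypes at 20 °C (-3.37), at 30 °C on control diet (-5.48) and on HFD (-3.24).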

How the results depend on the processing

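Of 29 differences of Ucp1, none changed its call or sign under median-ratio scaling, a pseudocount of 0.1, shares of summed RPKM, the sum of all rows or the fit over all transcript rows, and the 20 comparisons by exact permutation test kept theirs. The HFD difference of WT iBAT was -0.36 without a filter (adjusted p = 0.067) and 0.35 under quantile normalization, where the genotype by diet interaction of iBAT was -0.17. Quantile normalization keeps only ranks, and Ucp1 ranked 6 or 7 among all genes in each of those WT libraries. These 2 values therefore cannot size the diet difference of WT iBAT. With a pseudocount of 10, Ucp1-KO minus WT in iWAT on HFD was -0.056 and depot by temperature in Ucp1-KO mice -1.29 (-1.61 under quantile normalization, -1.41 with only its groups fitted). Depot by temperature in Ucp1-KO mice passed in each of these settings, unlike in the main fit. Relative to summed brown adipocyte markers, chosen after seeing the data, Ucp1-KO minus WT in iWAT was -0.31 at 20 °C, 0.37 at 30 °C and -0.023 on HFD, 20 minus 30 °C was -0.60 in Ucp1-KO iBAT, -0.12 in Ucp1-KO iWAT and 0.56 in WT iWAT, and HFD minus control diet was 0.61 in Ucp1-KO iBAT and -0.53 in Ucp1-KO iWAT. Calls were lost in the control diet genotype and both temperature comparisons of iWAT and in the Ucp1-KO iWAT diet comparison, and gained in the Ucp1-KO iBAT one. Under median-ratio scaling 7 of 36 relations changed: r with Dio2 in WT iBAT was 0.053, 4 others gained a call (Dio2 and Fabp3 in Ucp1-KO iBAT, Cidea and muscle markers in WT iBAT), and 2 lost one (Elovl3 and epithelial markers in WT iBAT). The causes were not tested.

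Leaving out 1 library at a time gave -0.40 to -0.30 for HFD in WT iBAT, 0.38 to 0.53 for genotype by diet in iBAT, 1.18 to 1.68 for Ucp1-KO minus WT in iWAT at 20 °C, -0.26 to 0.41 on HFD, and -1.50 to -1.24 for depot by temperature in Ucp1-KO mice. No paired analysis was possible because the labels number libraries across groups and give no animal. Depth limits iWAT most, where Ucp1 had as few as 4 reads.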
